A study of Danio rerio with 24 samples.

Results

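Iron storage and transport genes were followed through regeneration of the zebrafish (Danio rerio, AB strain) caudal fin. The genes are those with a probe set whose single annotated symbol is tfa or slc40a1, or starts with fth or tfr. This gave 6 of the 15502 probe sets tested, 1 for each of 6 genes among 8793 named genes: the ferritin genes fth1a, fthl27, fthl28 and fthl30, the transferrin gene tfa and the ferroportin gene slc40a1. Of the 12 symbols of this pattern in the RefSeq gene table, fth1b, fthl29, fthl31, tfr1a, tfr1b and tfr2 had no probe set of their own, so transferrin receptors were not measured here. The rule itself uses gene names and no measured values, but it was chosen with earlier results of these data known.

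Expression was measured on 24 Affymetrix arrays in 8 groups of 3. Adult male fins were unamputated or had regenerated until 1, 3 or 5 days post amputation (dpa), and each replicate pooled 10 fish. Larvae were amputated 2 days post fertilization. Their fins were unamputated at that age or had regenerated until 1, 2 or 3 dpa, and each replicate pooled 150 fins. Regenerating adults had been injected with a vehicle, phosphatidylcholine liposomes, and larvae at 2 and 3 dpa had been held for 1 hour in water with the vehicle DMSO. No vehicle is stated for unamputated fins of either age or for larvae at 1 dpa, so the vehicle and the days after amputation cannot be told apart for those groups. The titles of regenerating adult arrays and of larval 2 and 3 dpa arrays name an adult and larval fin study, and the other titles do not. What this marks is not stated. Adult changes against unamputated fin, and larval changes at 2 or 3 dpa against unamputated or 1 dpa fin, cross these title sets. Title set and regeneration cannot be told apart there. Regenerating larvae were older than the unamputated larvae by the days since amputation, so age and regeneration cannot be told apart either. Adult fin was cut within a short distance proximal to the amputation plane. Adult RNA (2.5 µg) went through a one-cycle labelling kit and larval RNA (100 ng) through a two-cycle kit, so age, kit and RNA input move together.

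Ferritin is the cage protein in which cells store iron, and its heavy chain oxidizes ferrous iron as it enters the cage. Transferrin carries iron in the plasma and is made mostly by the liver, and cells take it up through transferrin receptors. Ferroportin is the known exporter of iron from vertebrate cells and is abundant in macrophages that recycle iron from red cells. In the RefSeq table fthl27, fthl28, fthl30, fthl31 and fthl29 are successive protein-coding genes on 1 chromosome. Probes for such similar copies may share transcripts, so the 3 fthl probe sets are not known to be independent of each other.

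The deposited values are ratios, in which every probe set has its own denominator. They can be compared between arrays for 1 gene but not between genes, and they cannot show whether a gene or a tissue marker was present at all. Changes below are differences in log2 ratio, each with its standard error (SE) and a limma p-value adjusted over all 15502 probe sets by the Benjamini-Hochberg method. A gene is said to have risen or fallen only where the adjusted p was below 0.05 and the change at least 2-fold. The 3 comparisons with unamputated fin at 1 age share the same 3 unamputated arrays. Arrays of 1 group correlated at 0.793 to 0.939 over all probe sets, except larval 3 dpa at 0.629 to 0.808. Array medians were 0.868 to 0.914 in regenerating adult fins and 0.956 to 1 on all other arrays. The median of all adult changes was therefore -0.17, -0.18 and -0.17 at 1, 3 and 5 dpa, and adult changes are to be read against that shift. The mean log2 ratio of 9 spike-in control probe sets was -1.14 to -0.74 on the regenerating adult arrays, against 0.09 to 0.85 on the unamputated adult arrays. The part of this gap in the adult changes was not tested.

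In larval fins, fthl28, tfa, fthl30 and slc40a1 rose after amputation, and no gene of the 6 fell against unamputated fin. The largest changes of the 6 were those of fthl28, which were 3.83, 5.15 and 3.86 on the 3 days, and that of tfa at 1 dpa, at 3.30. At 1 dpa 3 of the 6 rose, beside 2.43% of all probe sets that were called higher. At 2 dpa 4 rose, beside 6.23%, and at 3 dpa 3 rose, beside 5.08%. The median change of the 6 was 0.94, 1.35 and 0.99 at 1, 2 and 3 dpa, against -0.03, -0.02 and 0.00 for all probe sets.

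In adult fins the ferritin-like genes rose and the carrier and exporter genes were not called at any day against unamputated fin. Of the 6, fthl28 rose at 1 dpa, beside 8.68% of all probe sets called higher. At 3 dpa fthl27, fthl28 and fthl30 rose, beside 8.1%. At 5 dpa limma called 0 of the 6, beside 11.5% of all probe sets called in either direction. An unadjusted p below 0.05 was found for 4 of the 6, beside 7317 of all 15502 probe sets. The median change of the 6 was 0.37, 0.79 and 0.43 at 1, 3 and 5 dpa.

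**Figure D1:**
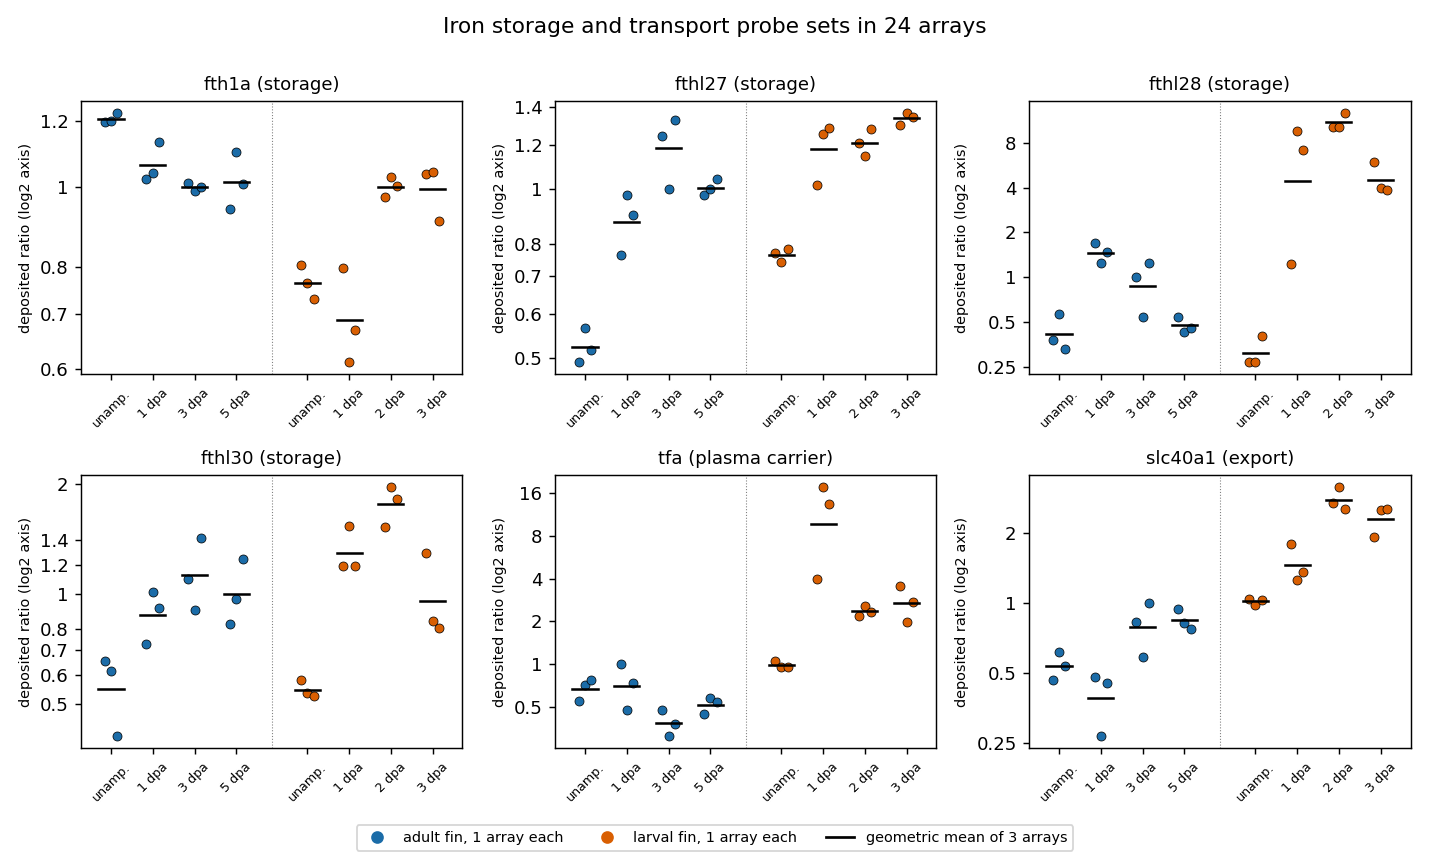
Deposited ratio of each of the 6 genes on the 24 arrays, with a log2 axis. Each point is 1 array, horizontal lines are geometric means of 3 arrays, and groups run from unamputated fin to the last day within each age, adults on the left. The fthl28 panel spans 0.269 to 12.6 and the tfa panel 0.315 to 17.6, whereas fth1a stays between 0.613 and 1.23.

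Among the storage genes, fthl28 had the widest range. At 1 dpa its ratios were 1.23, 9.61 and 7.17 in regenerating larval fins, against 0.269, 0.269 and 0.404 in unamputated larval fins. The groups did not overlap, but replicate 1 at 1 dpa was far below its 2 partners. The difference was 3.83 ± 0.59 (SE, limma adjusted p = 0.0021), which is 14.2-fold, and it was the 6th largest rise of all probe sets at that day. Without replicate 1 at 1 dpa it was 4.75, with quantile normalization 3.08 and with a floor on low ratios 2.93, all still called.

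At 2 dpa the fthl28 ratios were 10.2, 10.2 and 12.6 in regenerating larval fins. These 3 arrays lay close together, and the difference from unamputated fin was 5.15 ± 0.59 (limma adjusted p = 8.6e-05), or 35.6-fold. At 3 dpa the ratios were 5.9, 3.97 and 3.86, which gave 3.86 ± 0.59 (limma adjusted p = 0.00063). Quantile normalization moved these differences to 7.05 and 4.90, and the floor to 4.25 and 2.96. All 3 arrays at 3 dpa were below all 3 at 2 dpa, as for 7.5% of all probe sets, yet the step of -1.29 between these days was not called (limma adjusted p = 0.45; 0.033 without 1 dpa replicate 1). The step at 2 dpa against 1 dpa was 1.32 (limma adjusted p = 0.14), 0.40 without 1 dpa replicate 1, and 3.96 with quantile normalization, where it was called (adjusted p = 0.00019).

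In adult fins the group mean of fthl28 was highest at 1 dpa. Its ratios were 1.71, 1.23 and 1.48 at 1 dpa in regenerating fins, against 0.375, 0.561 and 0.329 in unamputated fins. The groups did not overlap and the difference was 1.83 ± 0.30 (SE, limma adjusted p = 0.0014), or 3.55-fold. At 3 dpa the ratios were 1, 0.536 and 1.25, so that replicate b lay within the unamputated range. That difference of 1.09 ± 0.30 was called (limma adjusted p = 0.016), but the call ended under 7 of 21 other settings. There the value went down to 0.76 and the adjusted p up to 0.079. Among them were the fits without adult unamputated replicate 3 (0.93, adjusted p = 0.052), 3 dpa replicate a (0.99, adjusted p = 0.053) or 3 dpa replicate c (0.83, adjusted p = 0.052). At 5 dpa the ratios of 0.542, 0.428 and 0.454 all lay within the unamputated range, with a difference of 0.20 (limma adjusted p = 0.62). The steps at 3 against 1 dpa (-0.74, limma adjusted p = 0.23) and 5 against 3 dpa (-0.89, limma adjusted p = 0.31) were not called.

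The neighbouring gene fthl30 rose less. At 1 dpa its ratios were 1.19, 1.53 and 1.19 in regenerating larval fins, against 0.579, 0.535 and 0.526 in unamputated larval fins, a difference of 1.25 ± 0.18 (SE, limma adjusted p = 0.0015). At 2 dpa they were 1.53, 1.96 and 1.82, a difference of 1.69 ± 0.18 (limma adjusted p = 5.5e-05) or 3.22-fold. At 3 dpa they were 1.29, 0.844 and 0.806. All 9 regenerating larval arrays lay above all 3 unamputated ones, but the 3 dpa difference of 0.81 stayed under 2-fold (limma adjusted p = 0.0065) and was not called.

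In adults the fthl30 ratios were 0.726, 1.01 and 0.912 at 1 dpa, against 0.654, 0.616 and 0.408 in unamputated fins. The groups did not overlap, and the difference of 0.67 ± 0.24 was not called (limma adjusted p = 0.04). At 3 dpa the ratios were 1.1, 0.905 and 1.42 and the difference of 1.03 ± 0.24 was called (limma adjusted p = 0.0071). This call ended under 4 of 21 other settings. Among them, the difference was 0.82 without adult unamputated replicate 3 and 0.86 without 3 dpa replicate c, both under 2-fold. At 5 dpa the ratios of 0.828, 0.969 and 1.25 gave 0.87 (limma adjusted p = 0.02), which was not called.

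The values of fthl27 moved within a narrow band. In regenerating larval fins its ratios were 1.02, 1.26 and 1.29 at 1 dpa, against 0.771, 0.743 and 0.781 in unamputated larval fins. They were 1.21, 1.15 and 1.28 at 2 dpa and 1.3, 1.37 and 1.35 at 3 dpa. Every regenerating array was above every unamputated one, and the differences of 0.63, 0.66 and 0.81 (SE 0.10 each) passed the adjusted p (0.003, 0.00065 and 0.00021 by limma) but not the 2-fold limit.

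The adult fthl27 ratios were 0.763, 0.976 and 0.898 at 1 dpa, against 0.492, 0.565 and 0.516 in unamputated adult fins. At 3 dpa they were 1.25, 1 and 1.33, and at 5 dpa 0.977, 1 and 1.04. All 9 regenerating arrays lay above the unamputated ones. The gene rose at 3 dpa by 1.18 ± 0.13 (SE, limma adjusted p = 0.00028), or 2.26-fold, while the differences of 0.74 at 1 dpa and 0.94 at 5 dpa were under 2-fold.

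The ferritin heavy chain gene fth1a, unlike its fthl relatives, was not called in any comparison. In regenerating larval fins its ratios were 0.797, 0.613 and 0.67 at 1 dpa, against 0.803, 0.764 and 0.73 in unamputated larval fins. These groups overlapped. The ratios were 0.972, 1.03 and 1 at 2 dpa and 1.04, 1.04 and 0.91 at 3 dpa, all above the unamputated arrays, and the differences of 0.39 and 0.38 (SE 0.11 each) had limma adjusted p-values of 0.021 and 0.025.

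In adult fins the fth1a ratios were 1.02, 1.04 and 1.13 at 1 dpa, against 1.2, 1.2 and 1.23 in unamputated fins. They were 1.01, 0.987 and 1 at 3 dpa and 0.941, 1.1 and 1.01 at 5 dpa. All 9 regenerating arrays were below the unamputated ones, with differences of -0.19, -0.27 and -0.25, as were the arrays of 36.8%, 37.6% and 37.4% of all probe sets. The median of all probe sets differed by -0.17 to -0.18 on the same arrays, and with each array centred on its median the fth1a differences were -0.04, -0.14 and -0.11 (limma adjusted p = 0.76, 0.26 and 0.37).

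**Figure D2:**
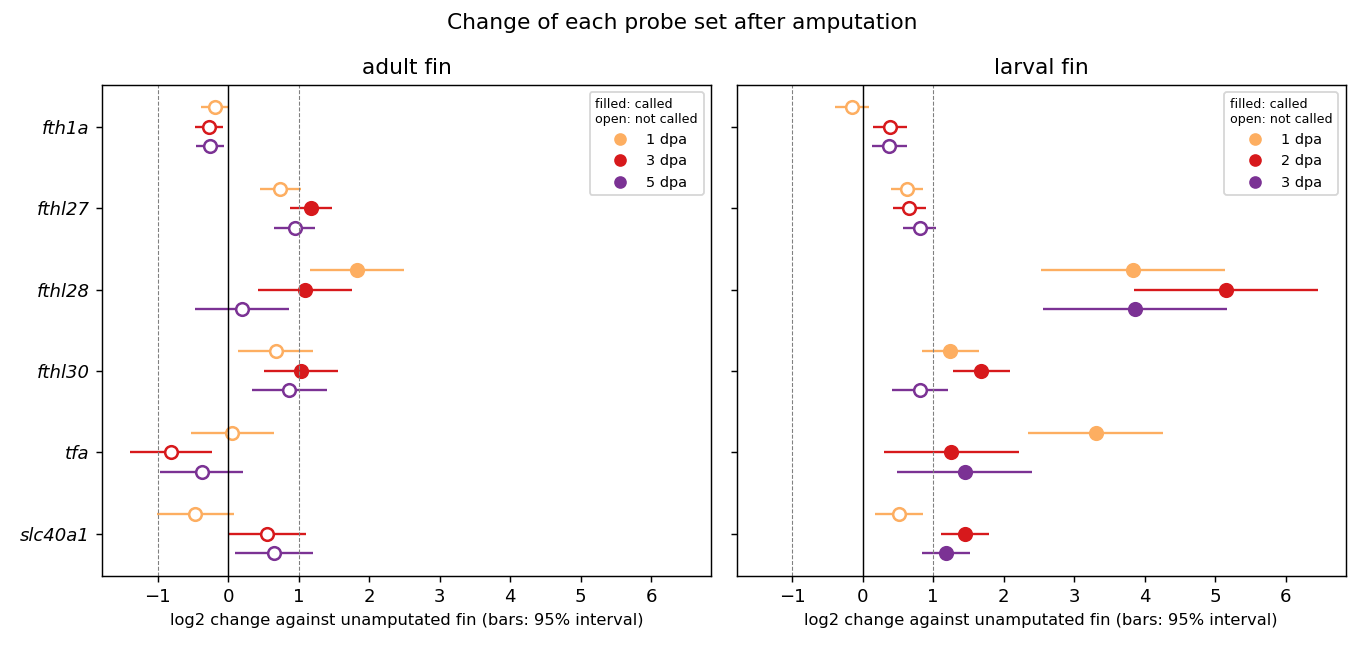
Log2 change of each gene against unamputated fin at 1, 3 and 5 dpa in adults (left) and at 1, 2 and 3 dpa in larvae (right). Bars are 95% intervals from the fit, filled points were called and open points were not, and dashed lines mark a 2-fold change. In adults the fthl28 change is 1.83, 1.09 and 0.20. In larvae it is 3.83, 5.15 and 3.86, and that of tfa 3.30, 1.26 and 1.45.

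The plasma carrier gene tfa was highest on larval arrays at 1 dpa. Its ratios there were 3.96, 17.6 and 13.3 in regenerating fins, against 1.05, 0.955 and 0.957 in unamputated fins. Every regenerating array was above the unamputated ones, and replicate 1 was again the lowest of the 3. The difference was 3.30 ± 0.43 (SE, limma adjusted p = 0.00086), or 9.88-fold, the 17th largest rise of all probe sets at that day. It was 3.95 without replicate 1 and 2.47 with quantile normalization.

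At 2 dpa the larval tfa ratios were 2.18, 2.59 and 2.32 and at 3 dpa 3.55, 1.99 and 2.74. All 6 lay above the unamputated arrays and below the lowest 1 dpa array, and 18.5% of all probe sets had all 3 arrays lower at 2 dpa than at 1 dpa. The fall at 2 dpa against 1 dpa was -2.05 ± 0.43 (limma adjusted p = 0.006), beside 5.33% of all probe sets called lower in that comparison. It was -2.70 without 1 dpa replicate 1 and -1.01 with quantile normalization (adjusted p = 0.042). Against unamputated fin tfa was still higher at 2 dpa, by 1.26 ± 0.43 (limma adjusted p = 0.046), and at 3 dpa, by 1.45 ± 0.43 (limma adjusted p = 0.028). Both calls depended on the settings: 13 of 22 other settings ended the 2 dpa call (adjusted p up to 0.12) and 5 of 22 the 3 dpa call (adjusted p up to 0.096). They included every fit without 1 of the unamputated larval arrays, with an adjusted p of 0.11 at 2 dpa without replicate 2 and of 0.076 at 3 dpa. In other settings the limma adjusted p went down to 0.00011 at 2 dpa and 0.00032 at 3 dpa. The SE is shared by the larval groups. The standard deviation of log2 tfa was 1.14 at 1 dpa. It was 0.08 in unamputated larval fins, 0.13 at 2 dpa and 0.42 at 3 dpa.

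In adult fins tfa did not rise. Its ratios were 1, 0.474 and 0.739 at 1 dpa, against 0.555, 0.714 and 0.78 in unamputated fins, and the groups overlapped (difference 0.06 ± 0.26, limma adjusted p = 0.87). At 3 dpa the ratios of 0.48, 0.315 and 0.382 were all below the unamputated arrays. The difference of -0.81 ± 0.26 (limma adjusted p = 0.031) was under 2-fold, and the same share of 37.6% of all probe sets applies. At 5 dpa the ratios were 0.447, 0.582 and 0.542, which overlapped the unamputated arrays (-0.38, limma adjusted p = 0.28).

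The exporter gene slc40a1 rose in larval fins later than tfa. At 1 dpa its ratios were 1.8, 1.25 and 1.36 in regenerating larval fins, against 1.04, 0.983 and 1.03 in unamputated larval fins, with a difference of 0.51 ± 0.16 that was not called (SE, limma adjusted p = 0.052). At 2 dpa they were 2.69, 3.14 and 2.53, and the gene rose by 1.45 ± 0.16 (limma adjusted p = 5.6e-05) or 2.73-fold. At 3 dpa they were 1.91, 2.51 and 2.54, a rise of 1.18 ± 0.16 (limma adjusted p = 0.00024). All 9 regenerating arrays lay above the unamputated ones, and all 3 at 2 dpa above all 3 at 1 dpa, as for 22.4% of all probe sets. That step of 0.93 ± 0.16 (limma adjusted p = 0.0016) was just under 2-fold.

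In adult fins slc40a1 went below and then above its unamputated values without a call. Its ratios were 0.483, 0.269 and 0.453 at 1 dpa, against 0.467, 0.618 and 0.536 in unamputated fins, which overlapped (-0.46 ± 0.25, limma adjusted p = 0.15). They were 0.832, 0.589 and 1 at 3 dpa and 0.944, 0.823 and 0.772 at 5 dpa. The differences of 0.55 and 0.65 were not called (limma adjusted p = 0.093 and 0.065), although all 3 arrays at 5 dpa were above the unamputated ones. The gene was called higher at 3 dpa than at 1 dpa, by 1.02 ± 0.25 (limma adjusted p = 0.047), beside 2.09% of all probe sets. This call ended under 14 of 21 other settings, among them a fit of only these 2 groups (adjusted p = 0.19) and the fits without any 1 of the unamputated or 5 dpa arrays (adjusted p = 0.063 to 0.073).

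Between larval 3 dpa and 2 dpa limma called 0 of the 6 genes, beside 0.297% of all probe sets. Between adult 5 dpa and 3 dpa it also called 0, beside 0.0516%. In each, 1 of the 6 had an unadjusted p below 0.05, beside 1748 and 1646 of all 15502 probe sets. Counted by arrays that do not overlap, 5 of the 6 genes were above unamputated fin at larval 1 dpa and all 6 at 2 and at 3 dpa. Over all probe sets this share was 15.6%, 25% and 19.3%. In adults 3, 2 and 3 of the 6 were above at 1, 3 and 5 dpa, beside 19.7%, 18.4% and 17.7%.

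A further 3 probe sets match several genes and were kept apart. The 1 shared by several fthl genes was higher by 0.81, 0.85 and 0.75 in larvae, all under 2-fold, and in adults it rose at 3 dpa by 1.47 (limma adjusted p = 0.00092) and at 5 dpa by 1.22 (limma adjusted p = 0.0032). A probe set annotated to both gstr, a glutathione S-transferase gene, and tfa had ratios of 2.63, 13.7 and 9.73 in larval fins at 1 dpa, against 1, 1.37 and 0.934 in unamputated larval fins. Its rise of 2.70 (limma adjusted p = 0.0041) again had replicate 1 lowest, and it correlated with tfa at -0.08 over the 12 adult arrays and at 0.98 over the 12 larval arrays. In adults its changes were 0.51, 0.40 and 0.49 at 1, 3 and 5 dpa, none called (limma adjusted p = 0.029, 0.077 and 0.046). Those of tfa were 0.06, -0.81 and -0.38. Its arrays at 1 and at 5 dpa lay above all unamputated ones, as for 19.7% and 17.7% of all probe sets. The other probe set of gstr and tfa was not called in larvae and fell at adult 1 dpa, with a change of -1.25 (limma adjusted p = 0.016).

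Over the 12 larval arrays, log2 values of fthl28 correlated with those of fthl27 at 0.91 and of fthl30 at 0.90, and those of tfa with slc40a1 at 0.09. Over the 12 adult arrays fthl27 correlated with fthl30 at 0.90 and with fth1a at -0.82. These values are descriptions over arrays that share group, day and labelling kit.

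In these pooled fin samples, which hold many cell types, fewer cells of a type and less RNA per cell cannot be told apart. Marker genes were therefore read on the same arrays. A list of macrophage and neutrophil markers had 14 genes with 20 probe sets. At larval 1 dpa 8 of the 20 rose and 0 fell, beside 2.43% of all probe sets called higher. The scavenger receptor gene marco of macrophages rose by 2.79 ± 0.33 (SE, limma adjusted p = 0.00051). A probe set of the myeloid transcription factor gene spi1b rose by 2.41 ± 0.38 (limma adjusted p = 0.0023). Another spi1b probe set of the list was not called in larvae. The mean log2 ratio over the list was -0.27, 0.42 and 0.44 on the 3 arrays at 1 dpa, against -0.39, -0.68 and -0.73 on the unamputated arrays. Replicate 1 at 1 dpa was the lowest of its group in this list, in tfa and in fthl28. It was also the lowest in the erythrocyte list (1.94, against 2.71 and 2.36 on its partners), the skeletal muscle list (4.84, against 6.46 and 5.19) and the pigment cell list (0.33, against 0.90 and 0.62), but not in the liver and epidermis lists. The part of these cells and of this array in the tfa and fthl28 results was not tested.

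At larval 2 dpa 5 of the 20 macrophage and neutrophil probe sets rose and 1 fell, and at 3 dpa 5 rose and 1 fell. Over all probe sets 6.23% and 5.08% were called higher and 6.32% and 5.51% lower. The list mean was -0.18 to 0.03 at 2 dpa and -0.47 to 0.06 at 3 dpa. At both days the list probe set that fell was that of lyz, the neutrophil lysozyme gene. In adults the list probe sets that rose numbered 4, 2 and 3 at 1, 3 and 5 dpa, and those that fell 2, 1 and 1. Over all probe sets 8.68%, 8.1% and 7.01% were called higher and 7.4%, 6.19% and 4.46% lower there. The adult list means overlapped, at 1.02 to 1.60, 0.99 to 1.17 and 1.02 to 1.32 on the 3 days, against 1.16 to 1.32 in unamputated fin.

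Markers of the liver and of plasma proteins, the usual source of transferrin, had 12 genes with 13 probe sets. In larvae limma called 0 of the 13 at 1 dpa. There 2 had an unadjusted p below 0.05, beside 4145 of all 15502 probe sets. At 2 and at 3 dpa the retinol carrier gene rbp4 was the only one that rose, and 0 fell. The list mean was -0.24 to 0.11 at larval 1 dpa, against -0.18 to -0.01 in unamputated larval fins. In adults 2 fell at 1 dpa and 2 at 3 dpa, beside 7.4% and 6.19% of all probe sets called lower. At 5 dpa limma called 0 of the 13. There 6 had an unadjusted p below 0.05, beside 7317 of all 15502 probe sets. The adult list mean was -0.73 to -0.54, -0.72 to -0.59 and -0.50 to -0.39 at 1, 3 and 5 dpa. In unamputated adult fins it was -0.16 to 0.01. The part of this in the adult tfa values was not tested.

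Red cell markers mostly fell at larval 2 and 3 dpa. Of their 14 probe sets 2 were called higher and 1 lower at larval 1 dpa. At 2 dpa 11 were called lower and at 3 dpa 10, with 0 called higher on both days. The list mean was 1.94 to 2.71 at 1 dpa, -0.28 to -0.24 at 2 dpa and -0.60 to -0.13 at 3 dpa, against 1.93 to 2.08 in unamputated larval fins. Skeletal muscle markers fell in 15 of 17 probe sets at larval 2 dpa and in 15 at 3 dpa. Their median change was -5.16 and -5.41 at these days. At 1 dpa it was 0.73, and 0 of the 17 were called. The muscle list mean was 3.49 to 5.62 in unamputated larval fins and 4.84 to 6.46 at 1 dpa. It was -0.09 to 0.54 at 2 dpa and -0.15 to 0.07 at 3 dpa. Of 23 epidermis probe sets 3, 1 and 0 were called higher and 4, 7 and 5 lower at larval 1, 2 and 3 dpa. Of 5 pigment cell probe sets 0 were called higher and 1 lower on each of these days. Over all probe sets 2.43%, 6.23% and 5.08% were called higher, and 6.32% and 5.51% lower at 2 and 3 dpa. The share called lower at 1 dpa is not given here. At 2 dpa against 1 dpa 10 of the 14 red cell probe sets were called lower and 0 higher. Of the 17 muscle probe sets 15 were called lower and 0 higher there. Over all probe sets 5.33% were called lower in that comparison. The part of these marker changes in those of fthl28, fthl30, tfa and slc40a1 at larval 2 and 3 dpa was not tested. Nor was their part in the fall of tfa at 2 dpa against 1 dpa.

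**Figure D3:**
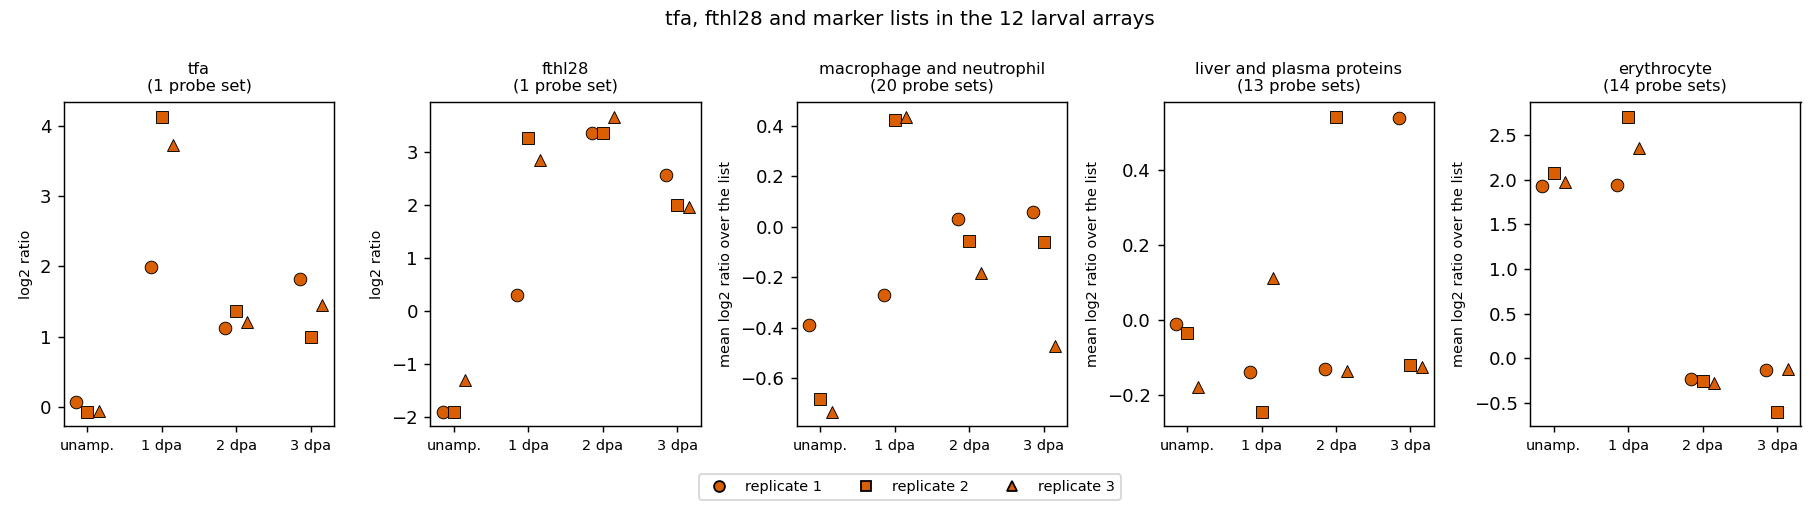
Log2 ratio of tfa and of fthl28 on the 12 larval arrays. The other panels give the mean log2 ratio over the macrophage and neutrophil, liver and plasma protein, and erythrocyte lists. Each symbol is 1 replicate. Replicate 1 at 1 dpa is the lowest of its group in tfa, fthl28 and both the macrophage and neutrophil list and the erythrocyte list, and the erythrocyte list lies at 1.93 to 2.71 up to 1 dpa and below 0 at 2 and 3 dpa.

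The change after amputation was then compared between adults and larvae at the 2 days measured in both. At 1 dpa the adult change minus the larval change was -3.24 ± 0.54 for tfa (SE, limma adjusted p = 0.00024) and -2.00 ± 0.71 for fthl28 (limma adjusted p = 0.038). For tfa the adult change was 0.06 and the larval change 3.30, and for fthl28 they were 1.83 and 3.83. These 2 of 6 calls stand beside 9.01% of all probe sets called lower. The fthl28 call was lost in 11 of 32 other settings (adjusted p up to 0.12), among them the fits without larval 1 dpa replicate 2 (-1.44, adjusted p = 0.11) or replicate 3 (-1.65, adjusted p = 0.1). Without larval 1 dpa replicate 1 it was -2.92 (adjusted p = 9.5e-05), and the tfa difference -3.89.

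At 3 dpa the difference was -2.77 ± 0.71 for fthl28 (SE, limma adjusted p = 0.0048) and -2.25 ± 0.54 for tfa (limma adjusted p = 0.003), beside 10.6% of all probe sets called lower. The adult and larval changes were 1.09 and 3.86 for fthl28, and -0.81 and 1.45 for tfa. Quantile normalization moved them to -5.31 and -3.31. Both genes kept these calls, and tfa its call at 1 dpa, under all 32 other settings. At 3 dpa none of the probe sets kept apart for matching several genes was called. The set shared by several fthl genes had 0.72 (limma adjusted p = 0.028), opposite in sign to fthl28. The gstr and tfa set that correlated with tfa at 0.98 in larvae had -0.9996 (limma adjusted p = 0.14), and the other -0.26. At 1 dpa the fthl set had 0.13 and was not called. The gstr and tfa sets were called there, at -2.18 and -1.17 (limma adjusted p = 0.0051 and 0.047).

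The other 4 genes were not called in these differences. For slc40a1 the difference was -0.98 ± 0.30 at 1 dpa (SE, limma adjusted p = 0.02), just under 2-fold, and -0.62 at 3 dpa (limma adjusted p = 0.11). For fth1a it was -0.03 at 1 dpa and -0.65 ± 0.14 at 3 dpa (limma adjusted p = 0.0013). For fthl27 it was 0.12 and 0.37 at 1 and 3 dpa, and for fthl30 -0.57 and 0.22, with limma adjusted p-values of 0.083 to 0.62. Labelling kit, RNA input, sex, pool size and vehicle also differed between the ages and cannot be told apart from age here. At 1 dpa the adult change crosses the title sets and the larval change does not. Title set and age cannot be told apart there either. At 3 dpa both changes cross the title sets. The median difference over all probe sets was -0.13 at 1 dpa and -0.18 at 3 dpa. The macrophage and neutrophil list gave 0 higher and 5 lower calls of 20 probe sets in the same contrast at 1 dpa, and 1 higher and 5 lower at 3 dpa. The liver and plasma list gave 0 higher and 2 lower of 13 at each day, rbp4 with -3.40 and -3.96 (limma adjusted p = 0.00063 and 8.6e-05) and serpina1l with -1.14 and -1.34. At 1 dpa the erythrocyte list gave 1 higher and 3 lower of 14, and the skeletal muscle list 0 higher and 1 lower of 17. At 3 dpa the erythrocyte list gave 9 higher and 0 lower, and the skeletal muscle list 15 higher and 0 lower, with a median of 4.96. The epidermis list gave 5 higher and 1 lower of 23 at 1 dpa, and 6 higher and 2 lower at 3 dpa. The pigment cell list gave 0 higher and 1 lower of 5 at 1 dpa, and 1 higher and 2 lower at 3 dpa. Over all probe sets 9.01% and 10.6% were called lower at 1 and 3 dpa. The shares called higher are not given here, so the higher counts of these lists have no background beside them. The part of these lists in the result was not tested.

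**Figure D4:**
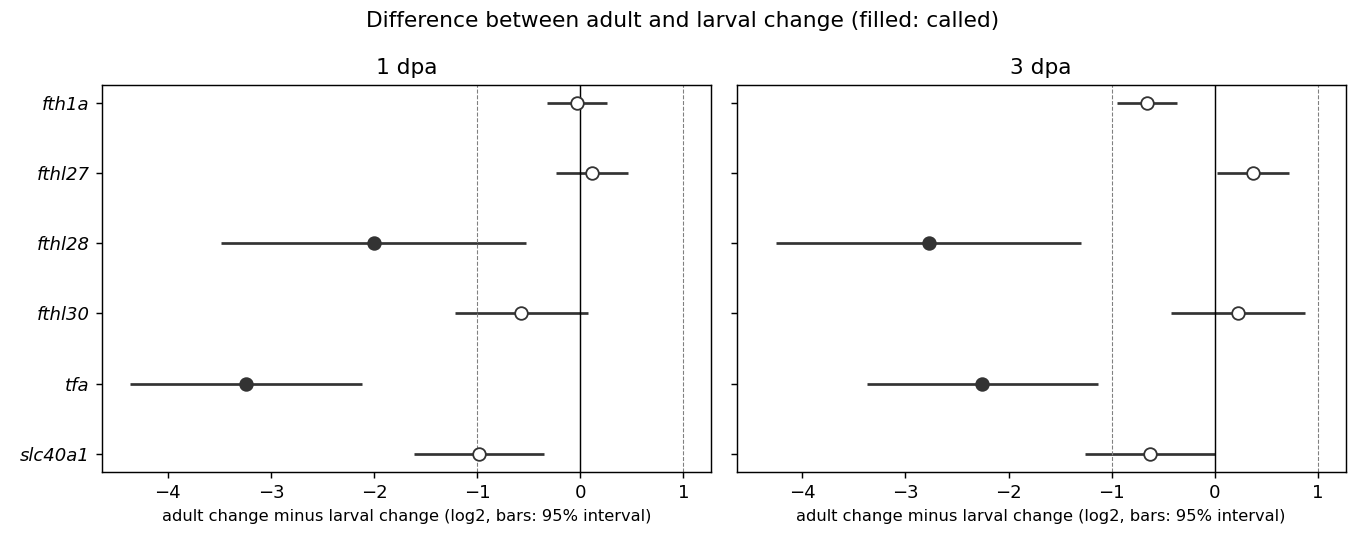
Adult change minus larval change of each gene at 1 dpa (left) and 3 dpa (right) on the log2 scale, with 95% intervals. Filled points were called, open points were not, and dashed lines mark a 2-fold difference. At 1 dpa tfa lies at -3.24 and fthl28 at -2.00, and at 3 dpa fthl28 lies at -2.77 and tfa at -2.25.

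Other genes of iron handling were counted from lists of uptake and regulation, export and oxidation, mitochondrial iron and iron-sulfur clusters, haem synthesis, and haem breakdown and scavenging. They had 26 probe sets for 24 genes. In larvae limma called 0 of the 26 at 1 dpa. There 7 had an unadjusted p below 0.05, beside 4145 of all 15502 probe sets. At 2 dpa and at 3 dpa 0 rose and 1 fell, beside 6.32% and 5.51% of all probe sets called lower. Both times it was alas2, the first enzyme of haem synthesis in red cells. Its changes were -1.18 ± 0.34 (SE, limma adjusted p = 0.022) and -1.02 ± 0.34 (limma adjusted p = 0.046, and 0.053 with each array centred on its median). This gene is also 1 of the erythrocyte markers. It was also lower at 2 dpa than at 1 dpa, with a change of -2.22, as was steap4, a metalloreductase gene, with -1.29 (limma adjusted p = 0.047).

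In adults the numbers of the 26 that rose were 3, 2 and 1 at 1, 3 and 5 dpa, and those that fell were 1, 2 and 2. Over all probe sets 8.68%, 8.1% and 7.01% were called higher and 7.4%, 6.19% and 4.46% lower at these days, so the counts over the list were near the background. The haptoglobin gene hp, whose product binds free haemoglobin, rose at 1 dpa by 2.83 ± 0.36 (SE, limma adjusted p = 0.00041) and at 3 dpa by 1.12 (limma adjusted p = 0.029). The difference between the adult and the larval change of hp at 1 dpa was 3.04 ± 0.49 (limma adjusted p = 0.00021), opposite in sign to that of tfa. The haem synthesis gene urod, for uroporphyrinogen decarboxylase, rose at all 3 days, by 1.25, 1.41 and 1.32, and steap4 rose at 1 dpa by 1.69 ± 0.50 (limma adjusted p = 0.021).

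Of 2 probe sets of fbxl5, the ubiquitin ligase adaptor that senses iron and targets iron regulatory proteins, 1 fell at adult 1 dpa, with a change of -1.04 (limma adjusted p = 0.0055), and at 5 dpa, with -1.02 (limma adjusted p = 0.0092). The other fell at 3 dpa, with -1.08 (limma adjusted p = 0.00068). With each array centred on its median these changes were -0.89, -0.88 and -0.94, all under 2-fold and not called. The ferredoxin gene fdx1, which passes electrons in mitochondria, fell at adult 3 dpa and 5 dpa, with changes of -1.15 and -1.02, and of -1.01 and -0.88 after centring, where the 5 dpa change was not called.

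Ferritin genes are known targets of the oxidative stress factor Nrf2 in mammals, and 9 other targets and pathway genes were measured with 13 probe sets. In larvae limma called 0 of the 13 at 1 dpa. There 5 had an unadjusted p below 0.05, beside 4145 of all 15502 probe sets. At 2 dpa nfe2l2a, which encodes Nrf2 itself, rose by 1.89 ± 0.41 (SE, limma adjusted p = 0.0045) and the quinone reductase gene nqo1 by 1.04 ± 0.16 (limma adjusted p = 0.00061). At 3 dpa nqo1 rose by 1.02, while 3 probe sets fell, with changes of -1.27 for gclm of glutathione synthesis and of -1.35 and -1.03 for the peroxiredoxin gene prdx1. Another prdx1 probe set of the list was not called there. Over all probe sets 6.23% and 5.08% were called higher at 2 and 3 dpa, and 5.51% lower at 3 dpa. In adults nqo1 fell at 1 dpa, with a change of -1.30 (limma adjusted p = 0.0099). At 3 dpa and at 5 dpa limma called 0. There 5 and 1 had an unadjusted p below 0.05, beside 8235 and 7317 of all 15502 probe sets.

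The genes whose pattern was most like each of the 6 were found over the 24 arrays by Pearson correlation, after centring each age on its own mean. For tfa they were laptm5 (0.89), gmfg (0.88) and the transcription factor gene runx3 (0.85). Over the 12 larval arrays alone runx3 (0.95) and the probe set of the myeloid marker spi1b that rose in larvae (0.95) led. For fthl28 they were slc39a3, a zinc transporter gene (0.94), slc35f6 (0.92) and slc17a5, a lysosomal sialic acid transporter gene (0.89). For slc40a1 they were the protease inhibitor gene timp2a, the sialidase gene neu3.2 (0.91 each) and hbp1 (0.89), and over the larval arrays bloc1s4, enpp1 and the lysosomal membrane gene lamp2 (0.97 to 0.98).

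The pattern of fthl27 was most like 2 probe sets of the cytoglobin gene cygb1 (0.95 each) and olfml3b (0.95). That of fthl30 was most like socs3b, an inhibitor of cytokine signalling (0.89), and krt18b, a keratin gene (0.86). For fth1a the closest were birc6-as2 (0.91), hcn2b (0.89) and igfbp3 (0.89). These are descriptions, since the arrays share group, day and labelling.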

How the data were processed

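RNA of 24 pooled fin samples had been hybridized to Affymetrix zebrafish arrays. The authors deposited a linear ratio for each probe set. Per the submitters' processing notes they used GCRMA, with no version given. The reference of the ratio is not given in the sources used here. It differs between probe sets: 9600 of the 15617 hold exactly one value of 1. The scale, a linear ratio, was read from the values.

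Log2 ratios were computed from the deposited ratios, 115 control probe sets were set aside, and 15502 were tested with limma 3.58.1 in R 4.3.3 (Benjamini-Hochberg adjusted p below 0.05 and at least 2-fold). Fits used the 12 arrays of an age, and all 24 for adult minus larval changes. The number of arrays, 3 a group, limits the precision. Symbols came from the platform annotation: 10795 probe sets had 1 symbol, 135 several and 4572 none, and 10711 were matched to RefSeq by gene ID, 1 of them under another symbol. Samples were grouped by their titles, since other labels disagree with them in a few places: the source names of 6 larval arrays give 1 replicate number, and the text for unamputated adults names days after amputation. Where the labels do not state separate pools, p-values measure only the spread between these arrays.

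All 6 genes were named. Other iron genes and markers were named only where called (up to 4 for each iron list and comparison, up to 3 for each marker list). Not every called gene of these lists is named. For each of the 6, 3 like genes were taken by correlation. The 6 genes, the lists and the tests were chosen with earlier results of these data known. Same-numbered larval replicates were not taken as paired, since the correlation of their deviations exceeded 0.1 in only 6 of 18 pairs (-0.0351 to 0.197). For adult 3 and 5 dpa arrays of the same letter it exceeded 0.1 in all 3 pairs (0.156 to 0.433). Replicate b at adult 1 dpa had 0.0477 with replicate b at 3 dpa and 0.405 with replicate b at 5 dpa. The labels do not state whether letters pair the samples, and these values do not settle it. Alternatives were the arrays in the fit, quantile normalization, median centring, a pseudocount of 0.1, a floor, a filter on low ratios, robust variance, no minimum fold, the replicate block and leaving out each replicate. The scripts were tested on simulated data.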

Additional observations from a re-analysis of the deposited data

Results flagged for a closer look

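The change after amputation differed between adults and larvae, by a test of the difference itself (limma over all 24 arrays, adult change minus larval change), for 4 of the 6 genes on adjusted p alone. At 1 and 3 dpa 3 of the 6 passed on each day, beside 31.1% and 39.5% of all probe sets. At 1 dpa the difference was -3.24 for tfa (adjusted p = 0.00024), -2.00 for fthl28 (adjusted p = 0.038) and -0.98 for slc40a1 (adjusted p = 0.02). At 3 dpa it was -2.77 for fthl28 (adjusted p = 0.0048), -2.25 for tfa (adjusted p = 0.003) and -0.65 for fth1a (adjusted p = 0.0013). The slc40a1 and fth1a differences were under 2-fold, so that 2 of the 6 were called at each day. The fthl28 call at 1 dpa was lost in 11 of 32 other settings. With each array centred on its median the fth1a difference was -0.51 (adjusted p = 0.006). Age could not be told apart from labelling kit, RNA input, sex, pool size and vehicle. At 1 dpa it could not be told apart from title set either, since only the adult change crosses the title sets.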

How the results depend on the processing

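Of 1680 values of the 6 genes under other settings, 1577 kept their direction and their side of the thresholds, 54 lost a call, 35 gained one and 14 changed sign, all of them for differences that were not called. The number of arrays, 3 a group, limits the precision, and a ratio does not show signal over background. In no setting was the cause of a lost call tested.

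With no minimum fold more of the 6 genes were called in several comparisons, since small changes then count. At larval 1, 2 and 3 dpa the number was 4, 6 and 6, beside 13.5%, 31.6% and 28.2% of all probe sets. It was 3 at larval 2 against 1 dpa, beside 23.4%. At adult 1, 3 and 5 dpa it was 3, 5 and 2, beside 46.2%, 43.8% and 34.3%, so the counts at adult 1 and 5 dpa were near the background. Quantile normalization gave 3 at larval 2 against 1 dpa, where fthl28 was 3.96 (adjusted p = 0.00019), 1 at adult 5 dpa and 0 at adult 3 against 1 dpa. Median centring gave 2 at adult 5 dpa, where fthl27 was 1.08 and fthl30 1.01, and 1 in the adult minus larval change at 1 dpa. A pseudocount of 0.1 gave 1 at adult 3 dpa and 0 at adult 3 against 1 dpa. The floor gave 1 and 0 there and 1 in the adult minus larval change at 1 dpa. Only the 2 groups compared gave 0 at adult 3 against 1 dpa, and only the 4 groups of the contrast gave 1 in the adult minus larval change at 1 dpa. Leaving out each replicate gave 1 to 2 at larval 2 against 1 dpa, 0 to 1 at larval 3 against 2 dpa and 2 to 3 at larval 3 dpa. Over all probe sets these fits called 1236 to 1628, 23 to 122 and 1526 to 1809. At adult 3 dpa such fits gave 1 to 3 and at adult 5 dpa 0 to 1, beside 1847 to 2309 and 1428 to 1851. At adult 3 against 1 dpa they gave 0 to 1, beside 237 to 535. In the adult minus larval change at 1 dpa they gave 1 to 3, beside 2458 to 3289. For normalization, centring, pseudocount, floor and fewer groups the counts over all probe sets are not given here.

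The adult minus larval change at 1 dpa turned sign for fth1a, to 0.063 with quantile normalization and 0.10 with centring, and for fthl27, to -0.080 with quantile normalization. Leaving out a replicate moved fth1a in that contrast between -0.12 and 0.070, and tfa at adult 1 dpa between -0.19 and 0.35. In steps between days the range was -0.070 to 0.10 for fthl27 at larval 2 against 1 dpa. At larval 3 against 2 dpa it was -0.042 to 0.056 for fth1a and -0.013 to 0.40 for tfa. At adult 5 against 3 dpa it was -0.037 to 0.076 for fth1a, -0.33 to 0.0052 for fthl30 and -0.11 to 0.27 for slc40a1. Without larval 1 dpa replicate 1 the changes at larval 1 dpa were 4.75 for fthl28 (adjusted p = 4.6e-06) and 3.95 for tfa (adjusted p = 7.3e-06).

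The replicate block ended the tfa call at larval 2 dpa (adjusted p = 0.059), which left 3 genes called there. It changed no other call, and 20 of 36 larval comparisons found an array closest to its own number, where 12 would be expected of unrelated numbers, a hint from the data and not from the design. Between adult 5 and 3 dpa the block, like the fit without it, called 0 of the 6. No paired analysis was possible for the other adult comparisons because the groups share too few replicate letters.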
